A study of Homo sapiens with 8 samples.

Results

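The regions described here are the places in the genome where EZH2 binding was called in every one of 4 ChIP-seq samples, 2 from each of a pair of myeloma lines. Overlapping or touching peaks of the 4 lists were merged, which gave 11858 regions, and a region was kept when it held at least 1 peak from each list. There were 326 such regions. Of these, 18 lay in a segment of chromosome 4 that the rule leaves out, so that 308 core regions remained, or 2.60% of all merged regions. Because the members were chosen by having a peak in each list, their heights, widths and p-values are described and are not evidence that these regions differ from others.

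EZH2 is the catalytic subunit of Polycomb repressive complex 2 (PRC2), which methylates lysine 27 of histone H3. The trimethylated form, H3K27me3, marks silent chromatin, and PRC2 is best known for holding developmental regulators in a repressed state, often over broad domains rather than at sharp sites. MMSET is a histone methyltransferase that dimethylates lysine 36 of the same histone, and nucleosomes carrying that mark are poor substrates for PRC2.

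Both lines derive from KMS11, a t(4;14)-positive multiple myeloma cell line in which 1 MMSET allele is joined to the immunoglobulin heavy chain locus and overexpressed. NTKO cells have lost the wild-type allele and keep the rearranged one, so MMSET is high. TKO cells have lost the rearranged allele and keep the wild-type one, so MMSET is low. Each line had 2 EZH2 ChIP samples, run 1 and run 2, all made with an antibody to EZH2, and 4 input samples served the authors as controls for peak calling. Both genotypes are represented by a single derived line, so a difference between lines cannot be told apart from a difference between these derivatives. The study describes its EZH2 samples as independent biological replicates, and the labels add only a number for each. MMSET and EZH2 levels are not part of the peak lists, so the labels were not checked against them.

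The 4 lists differed widely in length, with 2972 and 10582 peaks in NTKO runs 1 and 2 and 651 and 5516 peaks in TKO runs 1 and 2. Most merged regions were seen in a single list, 8246 of 11858 (69.5%), while 2206 were seen in 2 lists and 1080 in 3 lists. TKO run 1 decided the membership. Of the 1080 regions seen in 3 lists, 1016 lacked only a TKO run 1 peak, compared with 31 that lacked only TKO run 2, 27 that lacked only NTKO run 1 and 6 that lacked only NTKO run 2. When the rule was applied to the other 3 lists alone, leaving TKO run 1 out, it gave 1323 regions. The core set is therefore close to the TKO run 1 list itself. Its regions held 469 of the peaks of TKO run 1 (72.0%), but 529 (17.8%) and 363 (3.43%) of those of NTKO runs 1 and 2 and 556 (10.1%) of those of TKO run 2. By length, core regions held 80.6% of the bases inside TKO run 1 peaks, compared with 24.5% for TKO run 2 and with 37.5% and 13.1% for NTKO runs 1 and 2.

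Although they were a small part of the longer lists, the core regions held most of their tallest peaks. Among the 100 tallest peaks of each list, 78 and 75 lay in a core region in NTKO runs 1 and 2, and 66 and 80 in TKO runs 1 and 2. Of all peaks, 17.8% and 3.43% lay in a core region in NTKO runs 1 and 2, and 72.0% and 10.1% in TKO runs 1 and 2. The tallest peaks of TKO run 1 were thus in the core no more often than its peaks in general. Median height at the summit, in reads, over the 308 regions was 97 and 164 in NTKO runs 1 and 2, and 46 and 139 in TKO runs 1 and 2. Peaks outside the core regions and outside the chromosome 4 segment had medians of 50, 62, 45 and 64 reads in the same order. In TKO run 1 the core and the other peaks were thus of nearly the same height, and in the other 3 lists the core was taller. The height of a region in a list is that of its tallest peak there, whereas the peaks outside were counted singly, which favours the core in this comparison. Core regions with 2 or more peaks numbered 102 and 47 in NTKO runs 1 and 2 and 101 and 109 in TKO runs 1 and 2. Nothing states that heights were scaled for sequencing depth, and the lists do not give that depth, so a sample with taller peaks may simply hold more reads.

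**Figure D1:**
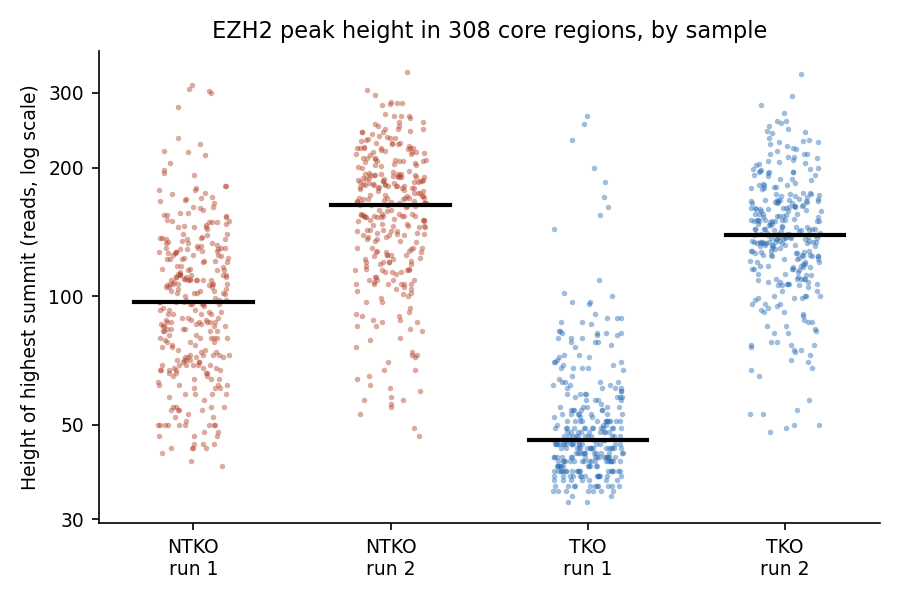
Height at the tallest EZH2 summit in each of the 308 core regions (reads, log axis), with 1 point per region and sample and a black bar at the sample median. The medians are 97 and 164 reads in NTKO runs 1 and 2, and 46 and 139 reads in TKO runs 1 and 2; most TKO run 1 points lie just above the lowest height of 33 reads, with a few above 150.

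The tallest member was chr1:147120405-147122694 (positions in hg18, as in all that follows). Its summit stood at 313 and 282 reads in NTKO runs 1 and 2 and at 264 and 269 reads in TKO runs 1 and 2. It was the tallest core region of both run 1 samples, and both NTKO values were above both TKO values, with log2 ratios of NTKO to TKO of 0.25 in run 1 and 0.07 in run 2. At chr1:153317166-153324252, a region of 7086 bp, heights were 303 and 335 reads in NTKO runs 1 and 2 and 171 and 332 reads in TKO runs 1 and 2. This was the tallest core region of both run 2 samples, where the lines were nearly equal.

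A pair of tall regions stood next to each other on chromosome 2. At chr2:91032603-91035607 heights were 306 and 236 reads in NTKO runs 1 and 2 and 254 and 255 reads in TKO runs 1 and 2. At chr2:90998013-91000298, 32.3 kb away, they were 300 and 221 reads in NTKO and 185 and 231 reads in TKO. At both places NTKO run 1 was the tallest sample and NTKO run 2 was below TKO run 2. Region chr1:120839062-120840533 had 278 and 253 reads in NTKO and 233 and 235 reads in TKO, a narrow range in which both NTKO values were above both TKO values. Region chr10:22650838-22652130 had 227 and 283 reads in NTKO and 200 and 294 reads in TKO, and the samples separated by run rather than by line.

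The remaining members of the 8 tallest showed a larger gap in run 1. At chr12:55894355-55900367 heights were 205 and 305 reads in NTKO runs 1 and 2 against 102 and 281 reads in TKO runs 1 and 2. At chr1:154655622-154660648 they were 235 and 296 reads in NTKO against 97 and 251 reads in TKO. The log2 ratios of NTKO to TKO were 1.01 and 1.28 in run 1 but 0.12 and 0.24 in run 2.

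Core regions were broad. The median merged length was 2410 bp, from 260 to 24836 bp, and 64 regions exceeded 5 kb and 14 exceeded 10 kb. Together they spanned 1.08 Mb. The 4 lists did not cover this length equally, with a median of 1768.5 and 2323 bp inside peaks in NTKO runs 1 and 2 and of 469 and 1781 bp in TKO runs 1 and 2. As a share of the region, the median was 78.1%, 97.8%, 20.4% and 81.0% in the same order. Since a merged region needs only a chain of overlaps, the bases shared by all 4 lists were fewer, with a median of 413.5 bp or 18.1% of the region, and 16 members had no base in common to all 4.

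**Figure D2:**
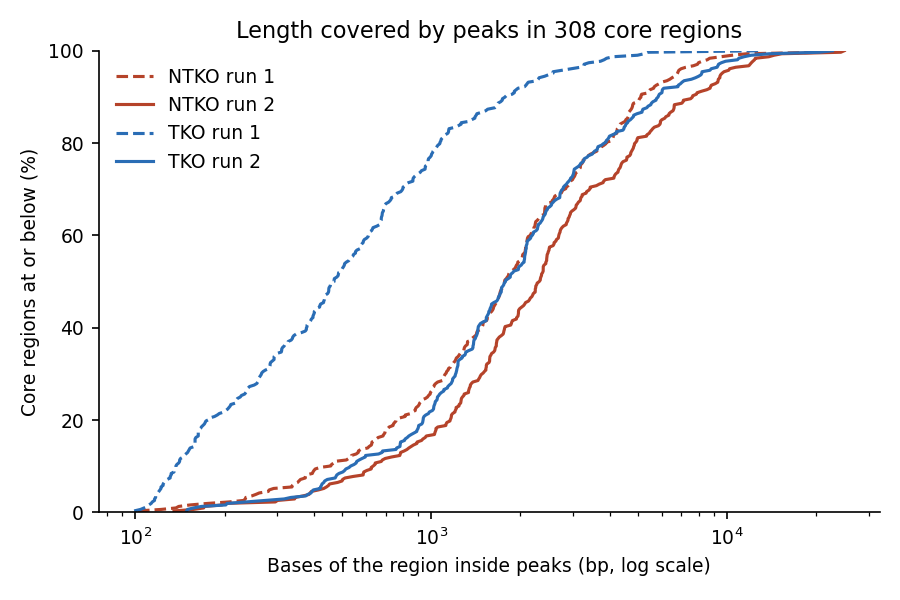
Cumulative share of the 308 core regions (%) against the number of their bases inside peaks (bp, log axis), with 1 line per sample (dashed for run 1, solid for run 2). TKO run 1 lies far to the left with a median of 469 bp, whereas NTKO run 1 and TKO run 2 nearly coincide at 1768.5 and 1781 bp.

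The widest members were seen as long blocks in some lists and as strings of short peaks in others. Region chr12:52674079-52698551 spanned 24472 bp. Peaks covered 23768 bp of it in NTKO run 1 and 24183 bp in NTKO run 2, and 12910 bp in TKO run 1 and 20425 bp in TKO run 2. It was called as 1 and 3 peaks in NTKO runs 1 and 2 and as 14 and 9 peaks in TKO runs 1 and 2, so the same stretch was more broken in TKO cells in both runs. Summit heights there were 214 and 283 reads in NTKO runs 1 and 2 and 109 and 221 reads in TKO runs 1 and 2. Region chr11:1956498-1981334, the longest at 24836 bp, was covered over 21148 and 24836 bp in NTKO runs 1 and 2 and over 2064 and 22670 bp in TKO runs 1 and 2. It was not tall, with 98 and 190 reads in NTKO and 49 and 175 reads in TKO. It was called as 11 and 1 peaks in NTKO and as 6 and 10 peaks in TKO, so in run 1 it was more broken in NTKO.

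Region chr20:60552438-60567917 was covered over 11627 and 15284 bp in NTKO runs 1 and 2 and over 1907 and 13854 bp in TKO runs 1 and 2, with heights of 83, 172, 46 and 163 reads in that order. Region chr17:75386111-75398573 was covered over 10387 and 12057 bp in NTKO and over 5393 and 10939 bp in TKO, with heights of 177 and 229 reads in NTKO and 97 and 225 reads in TKO. In these last 3 regions the lines were close in run 2 height, with log2 ratios of 0.12, 0.08 and 0.03. The chromosome 20 region was called as 5 and 1 peaks in NTKO runs 1 and 2 and as 6 and 4 peaks in TKO. The chromosome 17 region was called as 6 and 2 peaks in NTKO and as 2 and 4 peaks in TKO. Among these widest members TKO thus had more peaks in run 2, whereas in run 1 the direction varied. Breaking of a block into pieces was common in the set. Of the 261 regions with a single NTKO run 2 peak, 2 or more peaks were called at 85 (32.6%) in NTKO run 1, and at 80 (30.7%) and 90 (34.5%) in TKO runs 1 and 2. Only 110 of the 308 regions had exactly 1 peak in every list. Across regions, mean log2 height and mean log2 covered length were related with Pearson's r = 0.58 (Spearman's rho = 0.60, n = 308 regions). Both come from the same reads, so this is a description only.

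The first comparison of the design asks whether EZH2 signal in these regions differed between MMSET-high and MMSET-low cells. On the log2 scale the mean height over core regions was 6.92 ± 0.47 (SD, n = 2 samples) in NTKO and 6.38 ± 1.01 (SD, n = 2) in TKO, a difference of 0.54. An exact permutation test over samples (two-sided) gave p = 0.667. The smallest value that 2 against 2 samples can give is 0.333, so the test cannot decide whether the lines differ. Leaving out TKO run 1 alone, which sets both NTKO runs against TKO run 2, gave a difference of -0.18. Within run 2 the mean log2 height was 7.25 in NTKO and 7.09 in TKO. For the length covered by peaks, the mean log2 bp was 10.92 ± 0.29 (SD, n = 2) in NTKO and 9.88 ± 1.34 (SD, n = 2) in TKO. The difference of 1.04 gave p = 0.667 in the same exact permutation test, and without TKO run 1 it was 0.09.

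Within runs the picture was the same in direction but of different size. In run 1 the median log2 height ratio of NTKO to TKO was 0.93, and NTKO was the taller in 301 of 308 regions. In run 2 the median ratio was 0.16, with NTKO taller in 226 regions, TKO taller in 79 and both equal in 3. NTKO was taller in both runs at 226 regions and shorter in both at 6, whereas 72 regions had NTKO taller in run 1 and shorter in run 2. The covered length had median log2 ratios of 1.59 in run 1 and 0.20 in run 2. All of these ratios carry whatever difference in depth the libraries have, which was not tested.

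Region by region, limma over all 326 regions with a peak in all 4 lists called 0 core regions higher and 0 lower in NTKO at a Benjamini-Hochberg adjusted p under 0.05, beside 0% of all 326 regions in either direction. No core region reached an unadjusted p under 0.05 either, and the smallest adjusted p was 0.944. The standard error of a log2 difference was the same for every region in that fit, 0.84, larger than the median difference of 0.57. It holds the difference between runs, which that fit did not model. The lack of calls therefore does not show that the lines were alike at these regions. With heights centred on the sample median and the run number as a block, the same test called 44 core regions, 8 higher and 36 lower in NTKO relative to that median, beside 2.45% higher and 12% lower of all 326. The order of the 4 heights in each region was also counted, as a description and not as a test, since heights carry no stated depth scaling. Both NTKO heights were above both TKO heights in 36 core regions (11.7%) and below in 1 (0.325%), beside 12% and 0.307% of all 326 regions tested. The core regions make up 308 of those 326, so the shares are close by construction and nothing is read from their likeness. The 36 regions had median heights of 136 and 169.5 reads in NTKO runs 1 and 2 and of 49 and 106 reads in TKO runs 1 and 2. They lay on 17 chromosomes, with at most 5 on any of them. Of the 36, 5 belong to the regions described below that were not taller in NTKO run 2 than in run 1.

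To describe which regions stood to one side of the rest, the log2 ratio of each run was taken relative to the median of that run. The same side of the median was seen in both runs for 220 of 308 regions (71.4%), 110 above and 110 below. The ratios of the runs had r = 0.65 across regions (rho = 0.65, n = 308 regions). The 2 ratios share no sample, but neighbouring regions are not independent and no p-value is given. The mean of the centred ratios had r = 0.32 with mean log2 height (rho = 0.36, n = 308 regions). Across the whole set, taller regions thus tended to stand further towards NTKO. Both use the same heights. The 8 tallest members did not follow this trend as a group. From the tallest down, their mean centred ratios were -0.39, -0.13, -0.47, -0.37, -0.48, -0.23, 0.02 and 0.21. TKO run 1 heights lay in a narrow range, with a median of 46 reads and quartiles of 41 and 57. Whether this shapes the centred ratios was not tested.

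**Figure D3:**
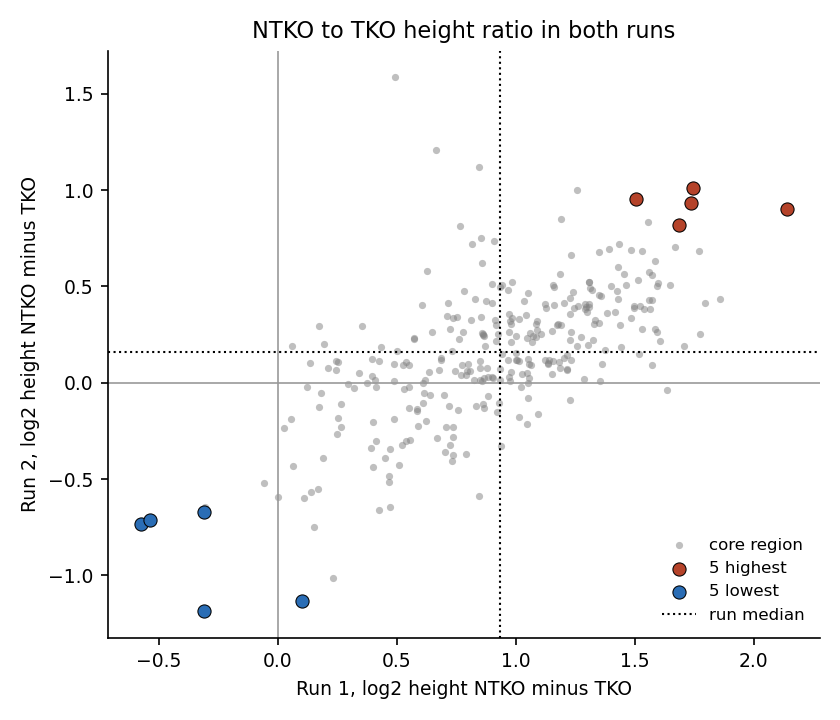
Log2 height ratio of NTKO to TKO in run 1 (x axis) and run 2 (y axis) for the 308 core regions, with the medians of the runs dotted (0.93 and 0.16) and the 5 highest and 5 lowest named ratios coloured. Nearly all points lie right of 0 on the run 1 axis, and the points spread upward from lower left to upper right.

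The 5 regions furthest towards NTKO on the same side in both runs all had NTKO heights above both TKO heights. Region chr1:864145-869377 had 181 and 256 reads in NTKO runs 1 and 2 and 41 and 137 reads in TKO runs 1 and 2. Its log2 ratio was 2.14 in run 1 and 0.90 in run 2. Peaks there covered 4248 and 4718 bp in NTKO but 450 and 2195 bp in TKO, so the stretch called as bound was shorter in TKO as well as lower.

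Region chr12:52708254-52712967 had 171 and 222 reads in NTKO against 51 and 110 reads in TKO, with log2 ratios of 1.75 and 1.01. Region chr12:52660775-52667938 had 132 and 185 reads in NTKO against 41 and 105 reads in TKO, with log2 ratios of 1.69 and 0.82. These lay on either side of the widest member described above, within 60 kb of chromosome 12. That stretch held 6 core regions, of which 5 were above the run median in both runs and 1 was below it in both. The lists broke it into 7 and 9 peaks in NTKO runs 1 and 2 and into 23 and 21 peaks in TKO runs 1 and 2.

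Region chr8:97234930-97237638 had 130 and 189 reads in NTKO and 39 and 99 reads in TKO, with log2 ratios of 1.74 and 0.93. Region chr7:129207736-129209875 had 122 and 159 reads in NTKO and 43 and 82 reads in TKO, with log2 ratios of 1.50 and 0.96. In TKO run 1 both were near the lower end of the list, with a −log10 p of 17.2 and 16.4 against the threshold of 15. Region chr1:864145-869377 was the weakest of the 5 in that list, with 15.9. The chromosome 12 regions chr12:52708254-52712967 and chr12:52660775-52667938 had 22.1 and 19.1.

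The 5 regions furthest towards TKO were low in NTKO cells, with at most 50 reads in run 1 and 91 in run 2. Region chr2:175577451-175578872 had 50 and 73 reads in NTKO runs 1 and 2 and 62 and 166 reads in TKO runs 1 and 2, with log2 ratios of -0.31 and -1.19. Region chr2:152900190-152901595 had 47 and 91 reads in NTKO against 70 and 151 reads in TKO, with log2 ratios of -0.57 and -0.73. Region chr2:132512334-132513047 had 40 and 47 reads in NTKO against 58 and 77 reads in TKO. It was the lowest of all core regions in both NTKO samples and the only one with both TKO heights above both NTKO heights.

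Region chr11:16582617-16585087 had 50 and 76 reads in NTKO against 62 and 121 reads in TKO. At chr12:52979976-52981615, where heights were 43 and 53 reads in NTKO and 40 and 116 reads in TKO, NTKO was above TKO by 0.10 on the log2 scale in run 1 and below it by a log2 ratio of -1.13 in run 2. It counted as low in both runs only because the run 1 median was 0.93. None of these 5 passed limma without block and centring (Benjamini-Hochberg adjusted p = 0.944 for each). In the fit with the run number as a block and centred heights, all 5 were called lower in NTKO (limma adjusted p from 0.0016 to 0.0043) and the 5 regions furthest towards NTKO were all called higher (limma adjusted p from 0.0093 to 0.034). Both groups were picked by the same centred ratios, so these calls are not independent of the choice. In all 5 of the lower regions NTKO run 1 gave the weakest p-value of the 4 lists, whereas TKO run 1 was the weakest list at 277 of the 308 core regions. The 5 were picked for low NTKO heights relative to TKO, so this is not independent of the choice either.

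Most core regions were taller in run 2 than in run 1 in both lines. From run 1 to run 2 the median log2 change over core regions was 0.65 in NTKO and 1.50 in TKO, and the run 2 height was above the run 1 height in 293 regions in NTKO and 303 in TKO. A small group did not follow. In 15 regions the height in NTKO run 2 was not above that in run 1, and 5 of them were lower in run 2 in TKO also, the same 5 that made up all such regions in TKO.

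**Figure D4:**
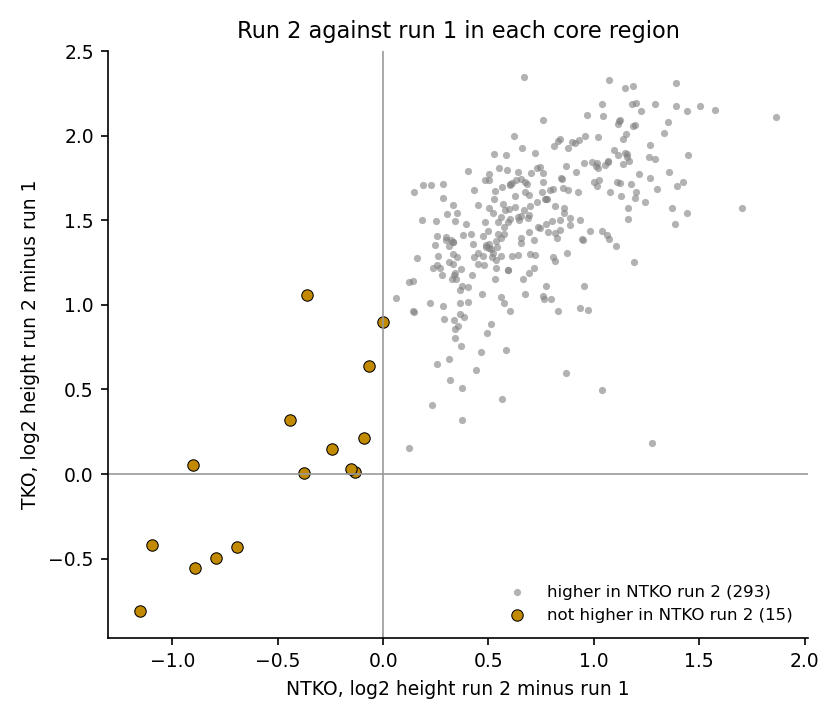
Log2 height in run 2 minus run 1 for each of the 308 core regions, in NTKO cells (x axis) and TKO cells (y axis). Most points lie at upper right around the medians of 0.65 and 1.50; the 15 coloured regions lie at or left of 0 in NTKO, and 5 of these are below 0 in TKO too.

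These 15 regions included chr1:147120405-147122694, chr1:120839062-120840533 and the chromosome 2 pair, all among the 8 tallest members described above. The 15 regions made up 7 of the 10 tallest core regions of TKO run 1 and 4 of the 10 tallest of NTKO run 1, but 1 and 2 of the 10 tallest of NTKO run 2 and TKO run 2. Their median heights were 165 and 102 reads in NTKO runs 1 and 2 and 100 and 96 reads in TKO runs 1 and 2. They were short, with a median of 1023 bp, and 11 of the 15 had a single peak in every list. Some were neighbours: besides the chromosome 2 pair, chr9:69075678-69076701 and chr9:69076970-69077621 were 269 bp apart and chr10:41992681-41993693 and chr10:42058837-42059130 were 65.1 kb apart.

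In the 3 regions with the largest difference of this kind in NTKO, run 2 was far below run 1. Region chr10:41992681-41993693 had 149 and 67 reads in NTKO runs 1 and 2 and 100 and 57 reads in TKO runs 1 and 2. Region chr16:32034365-32035288 had 122 and 57 reads in NTKO and 87 and 65 reads in TKO. Region chr9:69076970-69077621 had 112 and 60 reads in NTKO and 81 and 84 reads in TKO. Both lines were lower in run 2 in the first pair of these, and only NTKO was in the last.

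Without the 15 regions, Pearson's r of log2 height between runs was 0.80 instead of 0.71 in NTKO and 0.56 instead of 0.45 in TKO (n = 293 and 308 regions). They were picked by their difference between the NTKO runs, so a higher r in NTKO follows from the choice. The relation between lines in the same run was r = 0.62 instead of 0.66 in run 1 and 0.71 instead of 0.75 in run 2. What sets these regions apart was not tested, and no annotation of repeats or copy number was used.

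The position of the tallest summit was closest between lines in run 2. There the summits of NTKO and TKO were a median of 43.5 bp apart, and 246 of 308 (79.9%) lay within 250 bp of each other. In run 1 the median distance between lines was 132.5 bp and 66.9% lay within 250 bp. Between runs of the same line the medians were 128.5 bp in NTKO and 186 bp in TKO. The run 2 pair of lines was also the closest among regions of up to 2000 bp, with a median of 32 bp (121 regions), and among longer ones, with 53 bp (187 regions). Summits were thus placed more alike between lines in the taller run 2 lists than between the runs of a line. Whether depth plays a part in this was not tested.

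**Figure D5:**
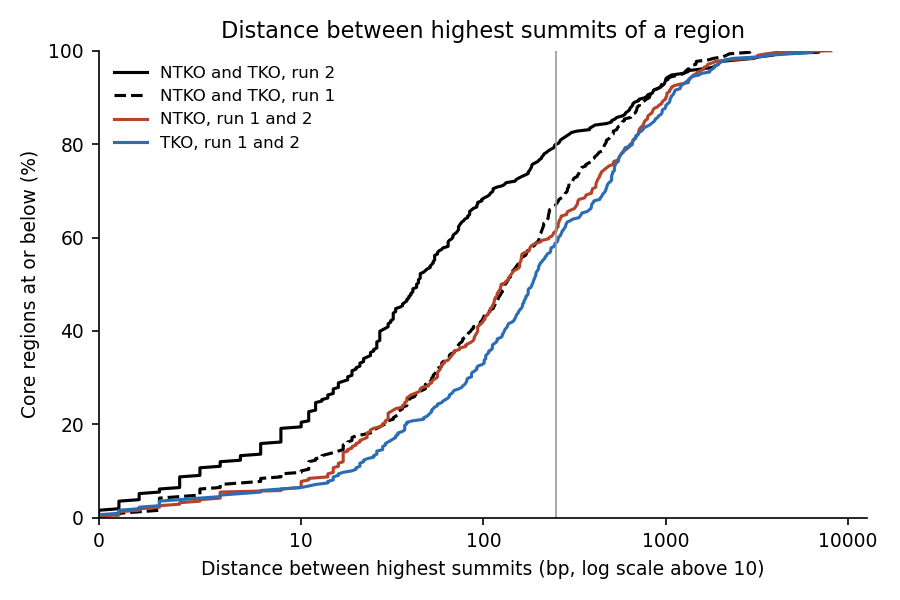
Cumulative share of the 308 core regions (%) against the distance between the tallest summits of 2 samples (bp, log axis above 10), with a vertical line at 250 bp. The curve for NTKO and TKO in run 2 lies above the others at short distances, reaching 79.9% at 250 bp, where the other 3 pairs lie between 58.8% and 66.9%.

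Core regions were found on 22 chromosomes and on neither chromosome 13 nor Y. Chromosomes 1, 20, 17 and 16 carried the most, with 41, 32, 28 and 26 regions. Together these held 127 (41.2%) of the core regions but also 34.4% of all merged regions. The share of merged regions that were core was highest on chromosome 12 (6.01%, 17 of 283) and chromosome 20 (5.32%, 32 of 601), against 2.60% in the genome as a whole, and lowest among chromosomes with any on chromosome 21 (0.556%, 2 of 360).

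Of the 308 core regions, 110 (35.7%) lay within 50 kb of another. The share was 67.5% among the 1015 regions that lacked only TKO run 1. It was 48.1% among the 557 regions in both NTKO runs only and 13.3% among the 30 in both TKO runs only. Close neighbours were thus not particular to the core. These classes differ in number of regions, and the shares were not tested. With regions up to 50 kb apart taken as a cluster, the 308 regions fell into 235 groups, of which 198 were single regions, 21 were pairs and 16 held 3 or more regions. Those 16 clusters contained 68 regions (22.1%), and 5 of them were on chromosome 20. The largest lay on chromosome 16 from 1094192 to 1277054, with 8 regions. Their median heights were 86 and 199 reads in NTKO runs 1 and 2 and 46 and 186.5 reads in TKO runs 1 and 2. The 6 regions of the chromosome 12 cluster from 52660775 to 52720775 had median heights of 128 and 185 reads in NTKO and 45.5 and 117 reads in TKO. A cluster of the same number on chromosome 20, from 61331869 to 61451408, had 89.5 and 186 reads in NTKO and 39.5 and 169.5 reads in TKO. In run 2 the gap between lines was thus wider in the chromosome 12 cluster, with a median log2 ratio of 0.48, than in those on chromosomes 16 and 20, with 0.14 and 0.10. These differences between clusters were not tested.

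The edge of the set lay at the peak-calling threshold in TKO run 1. The 3 members with the weakest p-values all had them in that list. Region chr6:30176345-30177576 had a −log10 p of 15.2 there and heights of 55 and 79 reads in NTKO runs 1 and 2 and 33 and 96 reads in TKO runs 1 and 2. Region chr11:1606291-1607436 also had 15.2, with 66 and 139 reads in NTKO and 35 and 111 reads in TKO. Region chr20:34143868-34145168 had 15.3, with 106 and 223 reads in NTKO and 39 and 196 reads in TKO. In all, 169 members had a −log10 p below 20 in at least 1 list.

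Just outside were regions of similar height that lacked only a TKO run 1 peak. The tallest of these were chr16:29941777-29944822, with 112 and 220 reads in NTKO runs 1 and 2 and 181 reads in TKO run 2, and chr15:39007010-39011370, with 166 and 228 reads in NTKO and 108 reads in TKO run 2. The third, chr1:61291079-61293229, had 146 and 210 reads in NTKO and 124 reads in TKO run 2, and a TKO run 1 peak lay 673 bp away from it. As a class, the 1015 regions outside the chromosome 4 segment that lacked only TKO run 1 had median heights of 55 and 112 reads in NTKO runs 1 and 2 and 82 reads in TKO run 2, below the 97, 164 and 139 reads of the core. Their median run 2 log2 ratio of NTKO to TKO was 0.44, against 0.16 in the core, and NTKO was the taller in 910 of them (89.7%), against 226 of 308 core regions (73.4%). Because the rule itself takes out regions without a TKO peak, this difference is given with no test.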

How the data were processed

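Chromatin from NTKO and TKO cells was immunoprecipitated with an antibody to EZH2 and sequenced, 2 samples per line. Per the authors' methods, BWA placed the reads on hg18, duplicate positions were dropped, and ChIPseeqer called the peaks of every sample over the matching input (at least 2-fold, −log10 p of at least 15). CASAVA 1.8 is named in the submitters' processing notes. The signal columns that the authors deposited are the mean read level of a peak and the height at its summit, in reads, with no stated scaling to library size. Whether the input normalization in the methods applies to these columns is not stated. The score column that the authors deposited is the log10 p-value of the peak, negative as written and given here with its sign turned. The percent column that the authors deposited places the summit within the peak. The lists give no depth, and no counting interval is printed. The 4 input samples were not analysed here.

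Peaks were merged where they overlapped or touched, and positions are printed as deposited, since the lists do not say whether they count from 0 or 1. Core peaks that end past a GRCh37 chromosome (3, 2, 2 and 3 in NTKO runs 1 and 2 and TKO runs 1 and 2) show that positions are not GRCh37. Genes, sequences and repeats were not assigned because no hg18 annotation was used here. Height was the tallest summit, and covered length the summed peak width, per region and list, on a log2 scale without pseudocount. Sample means were compared by an exact permutation test. Regions were compared with limma 3.58.1 in R 4.3.3, with line as the only term and Benjamini-Hochberg adjustment over 326 regions. Merging used pandas 2.3.3 and numpy 2.4.6, permutation tests scipy 1.17.1 and plots matplotlib 3.10.9, all in Python 3.11.15. Merging was tested on simulated data, and so was limma in the fit with centring and the run number as a block. The main limma fit was not tested in this way.

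Named regions are the 8 tallest by mean log2 height, the 5 highest and 5 lowest NTKO to TKO ratios relative to the run median among regions on the same side in both runs, the 4 widest by mean covered length, the 3 members with the lowest minimum −log10 p, and the 3 tallest regions missing from TKO run 1 only. The regions that were not taller in NTKO run 2 were singled out after their values were seen. Members, rule and tests were chosen with earlier results of these data known. Alternatives were merging within 1 kb, a −log10 p of at least 20, a base shared by all lists, the chromosome 4 segment kept, the mean read level, log2(height + 10), first-to-last span, centring, the run number as a replicate block and leaving out each sample.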

Additional observations from a re-analysis of the deposited data

Results flagged for a closer look

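The segment of chromosome 4 that the rule leaves out held a signal of its own. In it, 18 merged regions had a peak in all 4 lists, between positions 1872096 and 1950512, and they were short, from 263 to 771 bp. Their median heights were 109 and 120 reads in NTKO runs 1 and 2 and 79 and 127.5 reads in TKO runs 1 and 2, with the lines differing by a median log2 ratio of 0.47 in run 1 and -0.06 in run 2. They entered the limma comparison over 326 regions but none of the other values given for the core. No input values were analysed here for this segment.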

How the results depend on the processing

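The number of core regions was 281 with peaks merged within 1 kb, 292 with a shared base required and 326 with the chromosome 4 segment kept, but 139 with a −log10 p of at least 20. Leaving out each list in turn (chosen after seeing the data) gave 317 to 1323 regions, the latter without TKO run 1. The mean log2 height difference ranged from -0.18 (without TKO run 1) to 1.25 (without TKO run 2) when a sample was left out, and the covered length difference from 0.09 to 1.99. The height difference was 0.46 with the mean read level, 0.47 with log2(height + 10), 0.53 at the stricter threshold and 0.55 without the 15 regions not taller in NTKO run 2 (added after seeing the data). For covered length the span gave 0.92 and leaving out the 15 regions 1.08.

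With run as a replicate block these differences were unchanged by construction, with p = 0.50 in an exact sign-flip permutation test, the smallest it can give with 2 pairs. Limma called 0 core regions under the block, under centring, under the mean read level, without each sample in turn (0 to 0) and without the 15 regions. Unadjusted p was under 0.05 for 77 regions with the block, all 77 higher in NTKO, for 28 with centring, 4 higher and 24 lower, and for 156 without TKO run 2, all 156 higher. With replicate block and centring together, limma called 44 core regions, 8 higher and 36 lower in NTKO relative to the sample median, beside 2.45% and 12% of all 326. In that fit the median log2 difference of core regions was -0.08, so its lower calls include regions with a positive uncentred difference. Without the 15 regions that fit called 39, 8 higher and 31 lower. Same-numbered samples deviated together from their line means (r = 0.73 over regions, which with 2 samples a line is the mirror of -0.73 for the crossed numbers). The labels do not say what a number marks, so samples share only a number. For the same side of the run median, the count was 218 with the mean read level and 209 of 293 without the 15 regions. Of 25 named regions, 23 kept their log2 ratio within the spread of the runs under the mean read level and 2 moved by more, none changing sign. That spread is the SD of the 2 uncentred run ratios, whose medians over core regions were 0.93 and 0.16. It therefore holds the shift between runs and is a loose bound. The share of core regions at a gene start was not run, since no hg18 annotation was used. Without counts, what depth limits cannot be given in numbers: TKO run 1, the shortest list, had the largest part in the membership, and within run 2 alone the mean log2 height stayed higher in NTKO (7.25 against 7.09).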
